A study of Drosophila melanogaster with 3 samples.

Results

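Distal intergenic binding sites of CG17361 were examined in chromatin immunoprecipitation sequencing (ChIP-seq) data from whole Drosophila melanogaster embryos aged 0 to 24 hours. The embryos came from a transgenic line expressing CG17361 fused to eGFP, and the fusion protein was recovered with an antibody to GFP after sonication of the chromatin. The data are peak lists from 3 biological replicates of 1 group, and neither a second group nor the control library was analysed here. The embryos are a mixture of all stages and tissues, and a peak may come from a few of their cells. A distal intergenic peak was a peak of the authors' conservative list whose summit lay outside every gene body and more than 5000 bp from the nearest transcription start site (TSS). Of 7804 peaks on arms 2L, 2R, 3L, 3R, 4 and X, 452 met this rule, or 5.79% (95% Wilson interval 5.30 to 6.33). The conservative list was filtered by comparing replicates 1 and 3. The list of replicates 2 and 3, which leaves out replicate 1, held 215 such peaks of 4157, and the list of replicates 1 and 2, which leaves out replicate 3, held 272 of 5319. Per the file listings, all of these lists still derive from the alignments of all 3 replicates.

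CG17361 encodes a protein of the ZAD zinc finger family. In this family an amino-terminal zinc-finger-associated domain joins protein molecules to each other, and an array of C2H2 zinc fingers binds DNA. The family has expanded in insects, and its studied members include architectural, promoter-binding and heterochromatin proteins. Sequence far from any gene is the place of many developmental enhancers, which act on promoters over long distances, and also of gene-poor repetitive DNA near the centromeres.

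Each replicate has a list of its own, also filtered by the irreproducible discovery rate (IDR), a measure of how well the ranks of peaks agree between a pair of lists. These lists held 242 distal intergenic peaks of 5942 for replicate 1, 192 of 3797 for replicate 2 and 270 of 5576 for replicate 3. The shares were 4.07%, 5.06% and 4.84%, a mean of 4.66% ± 0.517 (SD, n = 3). The depth of the libraries is unknown, and its part in these differences was not tested. The other peaks of the conservative list were 3603 promoter peaks within 500 bp of a TSS, 2886 other peaks in gene bodies and 863 intergenic peaks 0.5 to 5 kb from a TSS. Peak signal is the authors' own score on a scale that the sources used here do not give. Signals were compared only within a list, and values of several lists are printed side by side with no order read between them. A mean over replicates of a signal difference takes the 3 lists to share a scale, which was not tested.

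The windows below show the sequence at the summits of 8 of the 12 strongest distal intergenic peaks found in all 3 replicates, and are printed because the summits differed from their flanks in base composition. They hold the summit base and 50 bp to each side on the dm6 plus strand, read from the RefSeq copy of the same assembly and named by the protein-coding genes to each side. The last line is the flank of the first peak at higher coordinates, centred 250 bp from its summit. Capitals mark matches, on either strand, to the 5 motifs that were more frequent at summits than in flanks (TATAAA of the TATA box, TTTTTTA of Hunchback, TTTGAT of Pangolin, the run AAAAAAAA and TAAACA of forkhead proteins, described further on).
NijA and CG43245, chr3L:10752729-10752829 (+): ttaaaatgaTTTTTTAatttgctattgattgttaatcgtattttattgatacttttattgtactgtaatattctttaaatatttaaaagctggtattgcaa
RFeSP and chinmo, chr2L:1638739-1638839 (+): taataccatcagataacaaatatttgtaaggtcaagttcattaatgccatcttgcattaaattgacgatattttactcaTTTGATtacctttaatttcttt
toe and eyg, chr3L:12457417-12457517 (+): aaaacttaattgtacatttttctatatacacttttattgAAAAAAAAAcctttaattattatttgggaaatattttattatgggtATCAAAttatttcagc
CG43401 and CG43402, chr2L:1433842-1433942 (+): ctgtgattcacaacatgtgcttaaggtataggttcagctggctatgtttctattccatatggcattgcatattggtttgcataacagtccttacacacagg
CheA75a and CG5103, chr3L:18281378-18281478 (+): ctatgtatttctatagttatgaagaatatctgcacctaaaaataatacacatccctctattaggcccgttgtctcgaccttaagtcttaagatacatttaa
CG13896 and hng3, chr3L:724591-724691 (+): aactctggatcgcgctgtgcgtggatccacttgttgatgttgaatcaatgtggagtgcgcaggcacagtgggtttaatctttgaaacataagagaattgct
vvl and Prat2, chr3L:6853577-6853677 (+): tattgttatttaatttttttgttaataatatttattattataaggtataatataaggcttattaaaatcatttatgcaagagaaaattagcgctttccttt
scyl and Dyro, chr3L:11261482-11261582 (+): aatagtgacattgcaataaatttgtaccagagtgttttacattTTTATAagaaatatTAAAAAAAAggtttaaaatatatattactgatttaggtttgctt
NijA and CG43245, chr3L:10752979-10753079 (+), flank: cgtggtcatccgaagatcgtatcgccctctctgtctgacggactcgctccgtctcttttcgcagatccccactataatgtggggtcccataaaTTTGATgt

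The GC content of these windows was 18.8% at the summit between NijA and CG43245 and 51.5% in its printed flank. The mean of the flanks at both sides of this peak was 42.1%. GC content was 17.8% at the summit between vvl and Prat2 (flank mean 43.6%) and 45.5% at the one between CG13896 and hng3 (46.0%). Between CG43401 and CG43402 it was 40.6% (41.6%). The 8 printed summits thus shared neither 1 composition nor 1 contrast with their flanks. The 3 on 2R, which are not printed, had 14.9%, 31.7% and 22.8% (flank means 55.0%, 56.9% and 47.0%). Of the 8 windows, 4 held no match to the 5 motifs.

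The strongest distal intergenic peak, chr2R:12959041-12959740, had a signal of 1008 and ranked 39 among all 7804 peaks. It lay 5831 bp from the TSS of CG13321, in the gap between this gene and Psc, which encodes a subunit of Polycomb repressive complex 1. Its signals in the lists of replicates 1, 2 and 3 were 407, 288 and 322. Another, chr2R:13035053-13035604, lay in the gap between CG13323 and Su(z)2, the paralogue and neighbour of Psc, 11881 bp from the TSS of CG13323. Its signal was 870 in the conservative list, and 316, 246 and 313 in the replicates. Both sites of the Psc and Su(z)2 region stood among the 3 strongest of the 12.

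Between them in signal was a peak far from any TSS. This peak, chr3L:10752400-10753094, between the membrane protein gene NijA and CG43245, was 19146 bp from the TSS of CG43245 and had a signal of 969, with 366, 248 and 361 in the replicates. Peak chr2L:1638442-1639125 lay between RFeSP and chinmo, which encodes a BTB zinc finger protein that sets the temporal identity of neurons. Its signal was 813, with 290.5, 242 and 278 in the replicates, and it stood 8374 bp from the TSS of lncRNA:CR45695. Peak chr3L:12457210-12457730 lay between toe and eyg, adjacent Pax family genes of eye and disc development, 10554 bp from the TSS of eyg. Its signal was 722, with 295, 154 and 274 in the replicates.

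These 12 leading peaks comprised 7 on 3L, 3 on 2R and 2 on 2L, with signals between 533 and 1008. The strongest peak of this kind on X, chrX:21593863-21594272, had a signal of 507 and lay between Cyp6t1, a cytochrome P450 gene, and GCS2alpha, a glucosidase subunit gene. On 3R it was chr3R:13914753-13915087, with a signal of 403, 13069 bp from the TSS of ems, a homeodomain gene of head and tracheal patterning. Of the 3 distal intergenic peaks on chromosome 4, none was found in all 3 replicates.

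**Figure D1:**
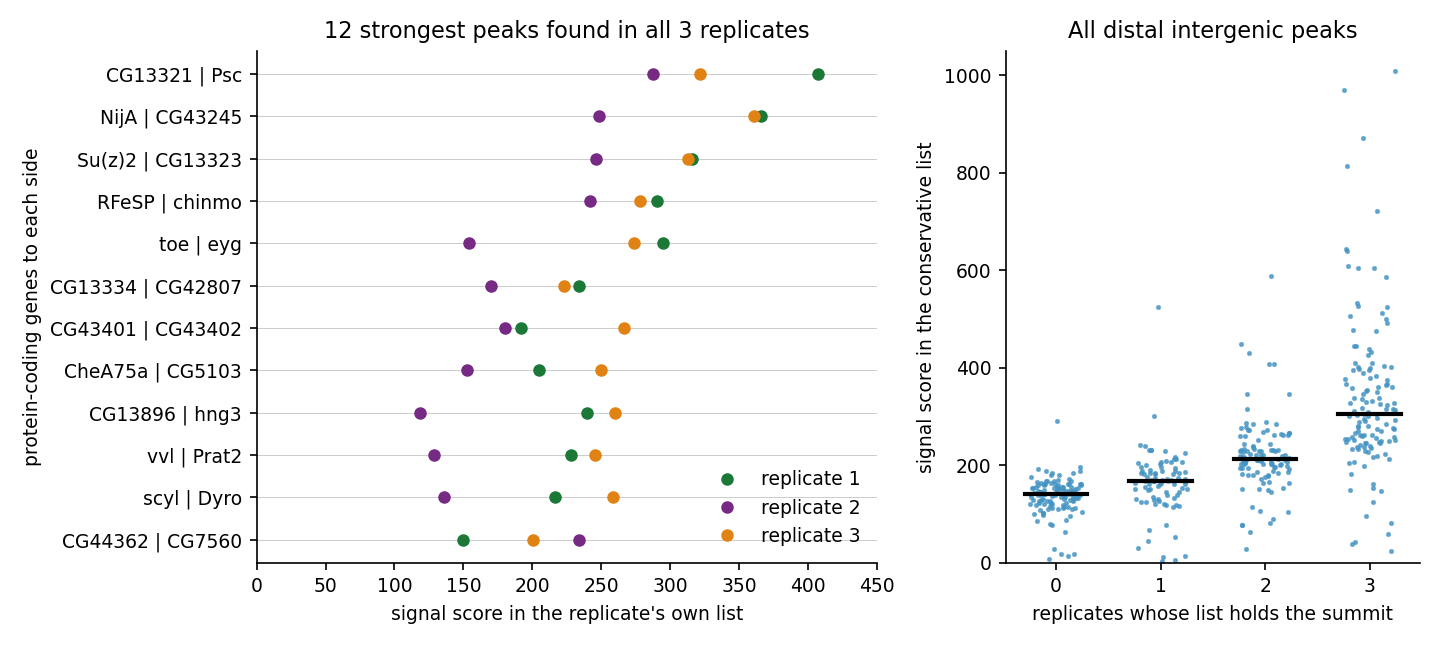
The left panel plots the signal score (x axis) of the 12 strongest distal intergenic peaks found in all 3 replicates, 1 point for each replicate's own list, with the flanking genes on the y axis. The right panel plots the signal of all 452 peaks in the conservative list (y axis) by the number of replicates whose list holds the summit (x axis), with the median as a bar; the medians are 141, 169, 213 and 305.

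Support in single replicates was uneven. The summit lay in a thresholded peak of all 3 replicates for 130 of the 452 peaks (28.8%, 95% Wilson interval 24.8 to 33.1), while 36.9% of all 7804 peaks met this criterion. No replicate's thresholded list held the summit of 124 (27.4%), against 19% of all peaks. A further 91 summits lay in peaks of 1 replicate and 107 in peaks of 2. The share in all 3 was 40.3% for promoter peaks, 35.3% for gene body peaks and 31.9% for intergenic peaks nearer to a TSS. The order turned when the ranked lists, which also hold peaks that miss the IDR limit, were used: 391 distal intergenic summits (86.5%) lay in a ranked peak of every replicate, against 81.7% of the summits of all other peaks. By single replicate, 238 summits lay in a thresholded peak of replicate 1, 186 in one of replicate 2 and 271 in one of replicate 3. The conservative list was made from these same replicates, and the shares describe it.

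Signal moved with this support. Of the 226 stronger distal intergenic peaks, 118 were found in all 3 replicates, against 12 of the 226 weaker ones. Signal and support come from the same replicates, so a link between them is built into the lists. The same split is not given for other peaks, so it shows nothing particular to distal intergenic ones. The signal of all 452 had a median of 188, with quartiles of 146 and 261, and ranged from 4.71 to 1008. Among the 500 strongest peaks of the whole list, 8 were distal intergenic, 334 promoter, 133 gene body and 25 nearer intergenic peaks. Of the whole list, 5.79% were distal intergenic, 46.2% promoter, 37.0% gene body and 11.1% nearer intergenic peaks.

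Distal intergenic peaks had lower signals than the rest in each list. In the conservative list their median of 188 compared with 216 for all other peaks. In replicates 1, 2 and 3 the medians were 94.8, 70.1 and 98.4, against 106, 87.4 and 111 for all other peaks. The difference was -13.7 ± 3.22 (SD, n = 3), negative in 3 of 3 replicates (two-sided exact sign-flip permutation test, p = 0.25, the smallest p that 3 replicates allow). It was -19.3 ± 5.91 against promoter peaks, -10.1 ± 2.22 against gene body peaks and -5.62 ± 2.35 against intergenic peaks nearer to a TSS, each negative in 3 of 3 replicates (exact p = 0.25 for each). Each p was also 0.25 after Benjamini-Hochberg adjustment over the 9 such tests of signal and GC content, so none could pass 0.05. Medians of the conservative list differed by -28.1, by -61.7 in the list without replicate 1 and by -38.0 in the list without replicate 3.

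The peaks were spread unevenly over the sequence in which they could lie. Eligible sequence, outside gene bodies and over 5000 bp from a TSS, made up 20.1 Mb, or 15.01% of the 6 arms. Per Mb of it there were 29.8 peaks on 2L, 29.7 on 3L, 23.8 on 3R, 23.9 on chromosome 4, 17.5 on X and 10.7 on 2R. Density was low at the centromere ends of the arms. The 5 Mb at the centromere end of 2L, 2R, 3L, 3R and X held 9.69 Mb of eligible sequence and 43 peaks (4.44 per Mb), and the rest of these arms held 10.3 Mb and 406 peaks (39.5 per Mb). Soft-masked repeats made up 31.4% of all eligible sequence and 22.4% of it without the centromere ends. Of the 452 summits, 136 (30.1%) lay in soft-masked sequence. Reads from repeats may not be placed uniquely, and the part of this in the low numbers at the centromere ends was not tested.

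Away from the centromere ends, 3L had the most peaks per Mb of eligible sequence. The densities in replicates 1, 2 and 3 were 35.8, 27.2 and 37.7 on 3L, or 33.6 ± 5.63 (SD, n = 3). They were 19.2 ± 2.06 on 2L, 17.8 ± 3.71 on 3R, 12.7 ± 2.82 on 2R and 12.1 ± 1.58 on X. The 3 values of 3L lay above all values of the other 4 arms, while 2L and 3R, and likewise 2R and X, differed by less than their spread. In the conservative list the densities were 61.1 on 3L, 42.5 on 2L, 33.4 on 3R, 25.7 on 2R and 23.9 on X. Peaks per Mb at the centromere ends were 11.7 on 2L and 11.0 on X, and between 1.08 and 4.06 on the others.

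The fall of density with distance from a TSS was smaller once the centromere ends were left out. The median distance of the 452 summits to the nearest TSS was 8776 bp, with quartiles of 6366 and 12435 bp, and 41 lay over 20 kb away. Over whole arms, density fell from 38.9 peaks per Mb at 5 to 7.5 kb to 2.63 beyond 30 kb. In the replicates' own lists these values were 18.9 ± 3.59 and 1.37 ± 0.190 (SD, n = 3). Without the centromere ends the densities were 43.2, 39.9, 42.4 and 39.1 per Mb in the 4 bins up to 20 kb, 29.0 at 20 to 30 kb and 15.6 beyond 30 kb, where only 10 peaks remained. Over whole arms, the nearest TSS belonged to a protein-coding gene for 311 peaks (68.8%, against 66.8% of eligible bases) and to a noncoding RNA gene for 133 (29.4% against 23.9%). It belonged to a tRNA gene for 7 (1.55% against 0.454%) and to a pseudogene for 1 (0.221% against 7.67%). These shares are not given without the centromere ends.

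**Figure D2:**
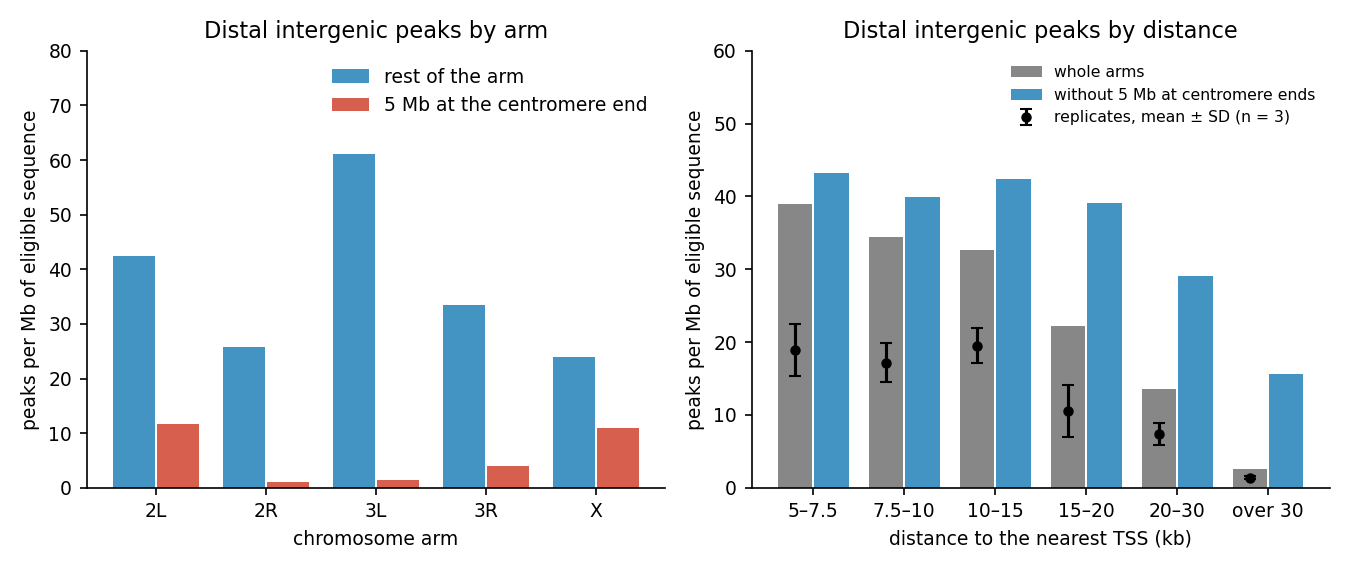
The left panel plots distal intergenic peaks of the conservative list per Mb of eligible sequence (y axis) for 5 arms (x axis), in the 5 Mb at the centromere end and in the rest of the arm. The right panel plots the same density by distance to the nearest TSS (x axis, kb) over whole arms and without the centromere ends; points and error bars give the mean and SD of the 3 replicates' own lists over whole arms, which fall from 18.9 to 1.37.

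The 3 peaks farthest from a TSS lay at the centromere end of 3L and had low signals. Peak chr3L:28091163-28091772 was 78869 bp from the TSS of l(3)80Fj, with a signal of 122, and no replicate's thresholded list held its summit. The other two, chr3L:27422370-27422979 and chr3L:27422165-27422774, overlap each other in the gap between Dbp80, an RNA helicase gene, and eIF4B, a translation initiation factor gene, over 56 kb from the nearest TSS. Their signals were 146 and 167, and both summits lay in the same peak of replicate 1, whose signal was 86.3, and in no thresholded peak of the others. At the 5000 bp limit, the peaks just inside it were 5015, 5017 and 5029 bp from a TSS with signals of 364, 144 and 110.5. Those just outside were 4996, 4995 and 4995 bp away with signals of 161, 154 and 213.

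Annotated transposable elements held few summits. They covered 14.2% of eligible sequence and held 3 of the 452 summits (0.664%), in copies of gypsy8, H and HMS-Beagle. Few summits of any class lay in them, with 0.397% of all 7804 peaks, 0.333% of promoter, 0.381% of gene body and 0.579% of nearer intergenic peaks. Among replicates this share was 0.834% ± 0.368 (SD, n = 3). All 3 lay at centromere ends. Without these ends the share was 0 of 409 peaks, which allows up to 0.733%, where elements cover 11.9% of eligible sequence.

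Many distal intergenic peaks had another nearby, and no share expected at this density was computed. Of the 452 summits, 320 (70.8%) lay within 10 kb of another and 149 (33.0%) within 1 kb. Some of this is overlap within the list: 126 peaks (27.9%) overlapped another distal intergenic peak. When overlapping peaks were counted once, 389 remained and 58.9% of them were within 10 kb of another. Among the 3 replicates it was 52.0% ± 5.93 (SD, n = 3), with fewer peaks in each list. The peaks occupied 203 gaps between neighbouring protein-coding genes, of 1248 gaps with eligible sequence (16.3%). Single peaks stood in 90 gaps, and 18 gaps with 5 or more held 110 peaks.

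The gap between vvl and Prat2 on 3L held the most, with 9 peaks in 117 kb. The gene vvl encodes a POU domain transcription factor of the nervous system and tracheae, and Prat2 an enzyme of purine synthesis. The strongest peak there, chr3L:6853354-6853834, lay 63.5 kb from the TSS of vvl and had a signal of 605, with 228, 129 and 246 in replicates 1, 2 and 3. A second, chr3L:6823747-6824191 at 33.9 kb, had a signal of 475, with 168, 134 and 163 in the replicates. The remaining peak found in all replicates was 44.6 kb from vvl, with 281, and the other 6 had signals between 126 and 237. Of these, the 2 nearest to vvl, at 7.38 and 7.65 kb, overlap.

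The gap between NijA and CG43245, 75.05 kb long, held 8 peaks that did not overlap, 7 of them between 38.4 and 63.5 kb from the TSS of NijA. Besides the peak with a signal of 969, those found in all replicates had signals of 528, 524 and 409. For the peak of 528, chr3L:10738630-10739202, the replicates gave 214, 129 and 173. The gap between comm and CG6244, 79.9 kb long, also held 8, of which 6 remained when overlapping peaks were counted once. The gene comm encodes a protein that keeps the guidance receptor Robo off the surface of axons crossing the midline. Only chr3L:15787408-15787710, with a signal of 366, was found in all 3 replicates there, with 131, 77.6 and 153. These 3 gaps are all on 3L, which had the most peaks per Mb away from the centromere ends, while 2L and 3L had 29.8 and 29.7 over whole arms.

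**Figure D3:**
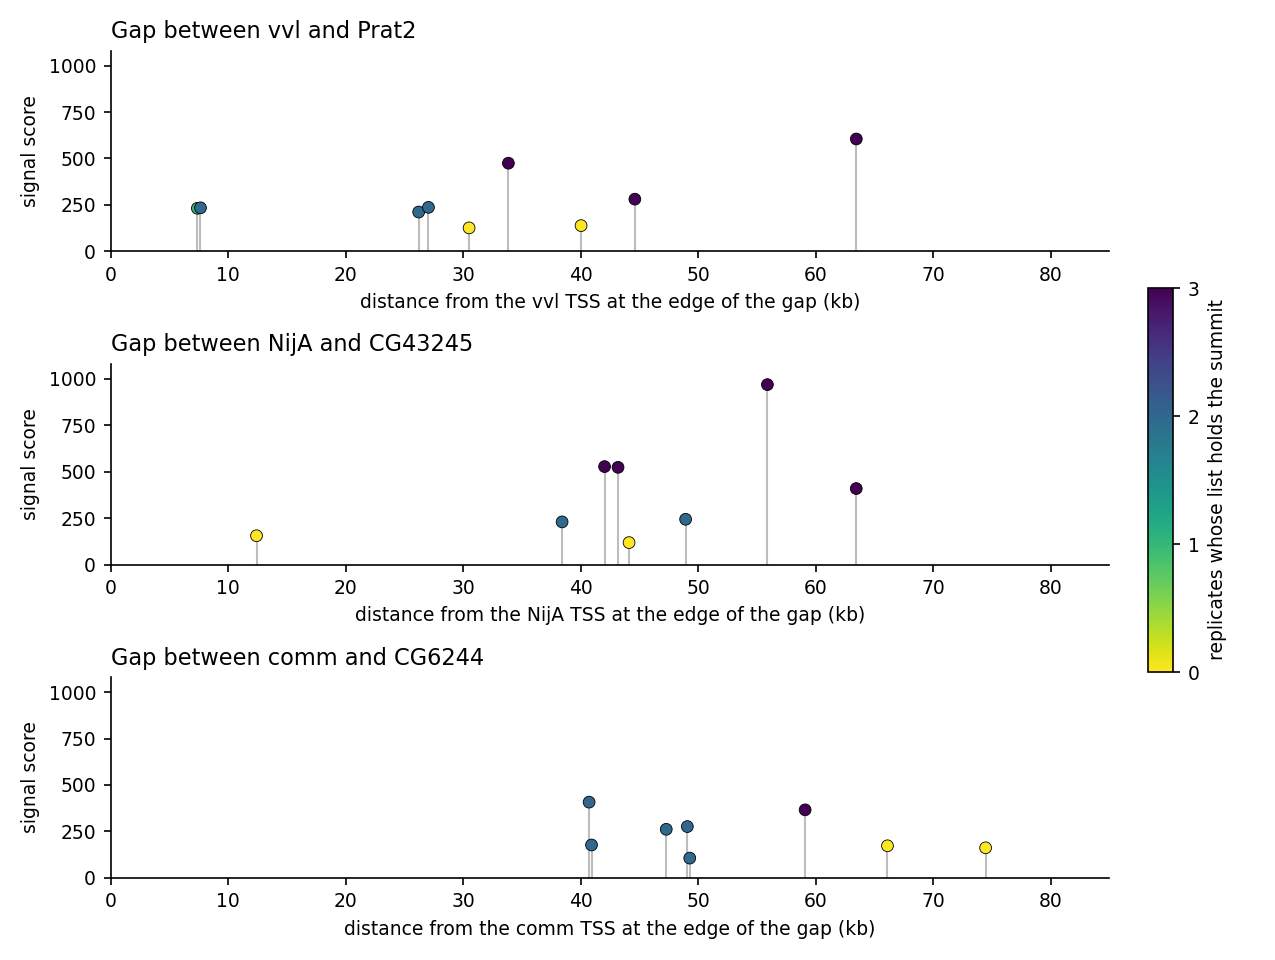
Each panel plots the signal score in the conservative list (y axis) of the distal intergenic peaks of 1 gap against the distance from the TSS of the gene at its left edge (x axis, kb, drawn to 85), with colour for the number of replicates whose list holds the summit. Signals run from 126 to 605 beside vvl, from 118 to 969 beside NijA and from 106 to 408 beside comm.

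Genes for patterning and cell fate transcription factors were frequent neighbours. For 96 of the 452 peaks (21.2%) the nearest protein-coding TSS belonged to 1 of 178 such genes, while these genes were nearest to 5.80% of eligible bases. The 3 replicates gave 17.8% ± 2.44 (SD, n = 3). Without the centromere ends it was 94 of 409 peaks (23.0%), against 9.27% of eligible bases. Counted by gene, 40 of the 93 listed genes with eligible sequence had such a peak (43.0%), and 242 of all 1787 protein-coding genes with eligible sequence did (13.5%). Counts by gene cover whole arms and do not allow for how much eligible sequence each gene has. With overlapping peaks counted once, the share of peaks was 20.6%. Lists were chosen with earlier results of these data known, as stated below. These shares describe position, carry no test, and do not show which gene a site acts on.

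The genes of this list with the most peaks were vvl with 9, counting 1 outside the gap to Prat2 and leaving out the one of 605, which is nearer to Prat2, and ems with 7, of which 3 were found in all replicates. B-H2, a BarH homeodomain gene of sensory organs and eye, had 7, with signals up to 289. The zinc finger gene noc had 5, with signals up to 346 and none found in all replicates. Of the genes with 3 peaks, croc, a forkhead gene, and mid, a T-box gene, had all 3 in every replicate, with highest signals of 445 and 410.04. At both genes 2 of the 3 summits lay close together, 199 bp apart at croc and 213 bp apart at mid. A single replicate peak may thus hold both of them. Overlapping peaks were not merged in the counts by gene. The head gap gene oc (also called otd) had 3, with up to 427, and the motor neuron gene exex had 3, with up to 262. The segmentation genes kni, odd and hry had 2 each, with up to 161, 181 and 222, and en and opa 1 each, with 170 and 277.

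Signalling genes were the nearest protein-coding genes of 20 peaks (4.42%), against 1.11% of eligible bases, and 8 of the 30 listed genes with eligible sequence had a peak (26.7%). The Toll family receptor gene 18w had 4, with a signal of up to 513, the FGF gene ths 4 with up to 279, and the Wnt gene wg 3 with up to 445. The gene of the Hedgehog receptor, ptc, had 2 with up to 478, whose summits lay 200 bp apart, and hh itself 1, with 252. Without the centromere ends the share was 4.89% of peaks and 2.14% of eligible bases. Adhesion and axon guidance genes had 11 peaks (2.43% against 1.97%), 7 of them at Tollo, and 3 of 43 genes had a peak. Without the centromere ends that share was below the eligible share, at 2.69% against 3.09%. Tollo was listed here, while 18w and Toll-6 were listed with signalling genes, so both shares depend on where Tollo is placed. Ion channel and neurotransmitter receptor genes had 2, both at the sodium channel gene ppk (0.442% against 0.684%), with 1 of 28 genes reached.

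**Figure D4:**
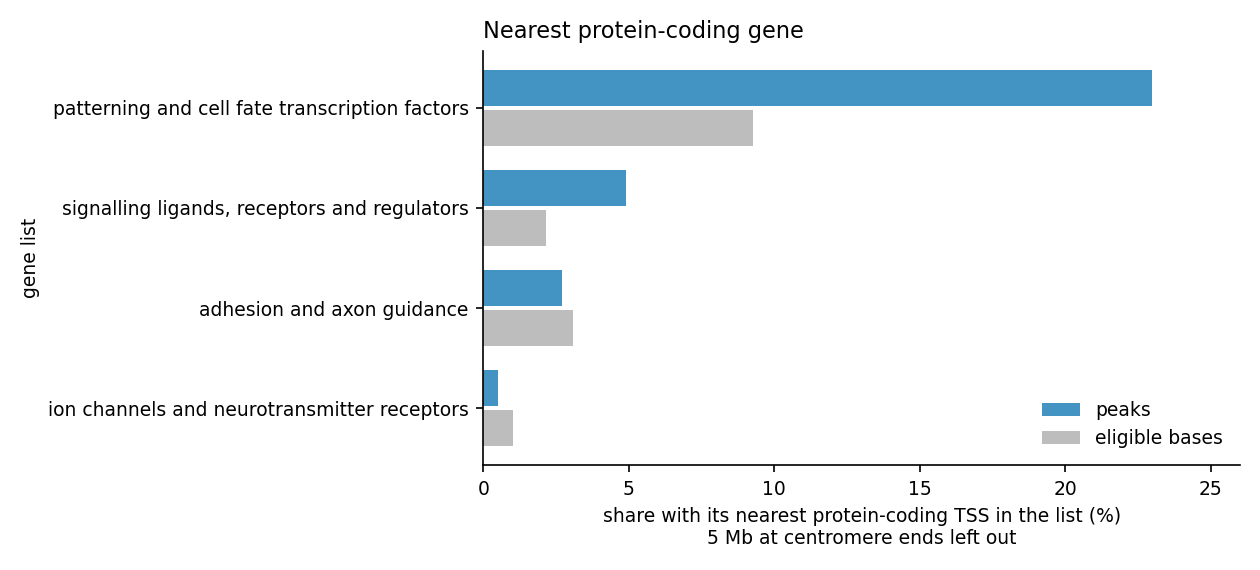
Bars give the share (x axis, %) of distal intergenic peaks of the conservative list, and of eligible bases, whose nearest protein-coding TSS belongs to each of 4 gene lists (y axis), without the 5 Mb at the centromere ends. The patterning and cell fate list has 23.0% of peaks and 9.27% of bases, and the ion channel list 0.489% and 1.02%.

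The share of peaks whose nearest protein-coding gene was itself bound at its promoter was similar with and without the centromere ends, while that of eligible bases was not. In the whole list 86 peaks (19.03%) had a nearest protein-coding gene with a summit within 500 bp of a TSS, below the 24.3% of eligible bases. Without the centromere ends the share was 18.3%, above the 14.6% of eligible bases. Over all protein-coding genes 26.4% had such a summit. Peaks lay upstream of the nearest protein-coding TSS in 50.2% of cases, and eligible bases in 53.4%.

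The summits lay in AT-rich sequence inside flanks of higher GC content. In the conservative list the mean GC content within 50 bp of distal intergenic summits was 31.5%, against 45.0% in windows centred 250 bp to each side and 40.9% of all eligible sequence. The differences in replicates 1, 2 and 3 were -13.6, -15.1 and -14.3 percentage points, or -14.3 ± 0.757 (SD, n = 3; two-sided exact sign-flip permutation test, p = 0.25, the smallest possible). For all other peaks the difference was -11.4 ± 1.65. The difference at distal intergenic peaks minus that at promoter peaks was -3.78 ± 1.12 points, and it was -2.03 ± 0.954 against gene body peaks and -1.75 ± 0.305 against intergenic peaks nearer to a TSS. Each of these 3 was negative in 3 of 3 replicates (exact permutation p = 0.25 for each). At the summit itself GC was 33.1% at promoter, 31.97% at gene body and 31.2% at nearer intergenic peaks, against 31.5%. In the flanks it was 41.9%, 43.4% and 43.3%, against 45.0%. Stronger distal intergenic peaks had lower GC at the summit: 29.6% in the stronger 226 and 33.4% in the weaker 226. Among the 12 strongest found in all replicates it ran from 14.9% to 45.5%.

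**Figure D5:**
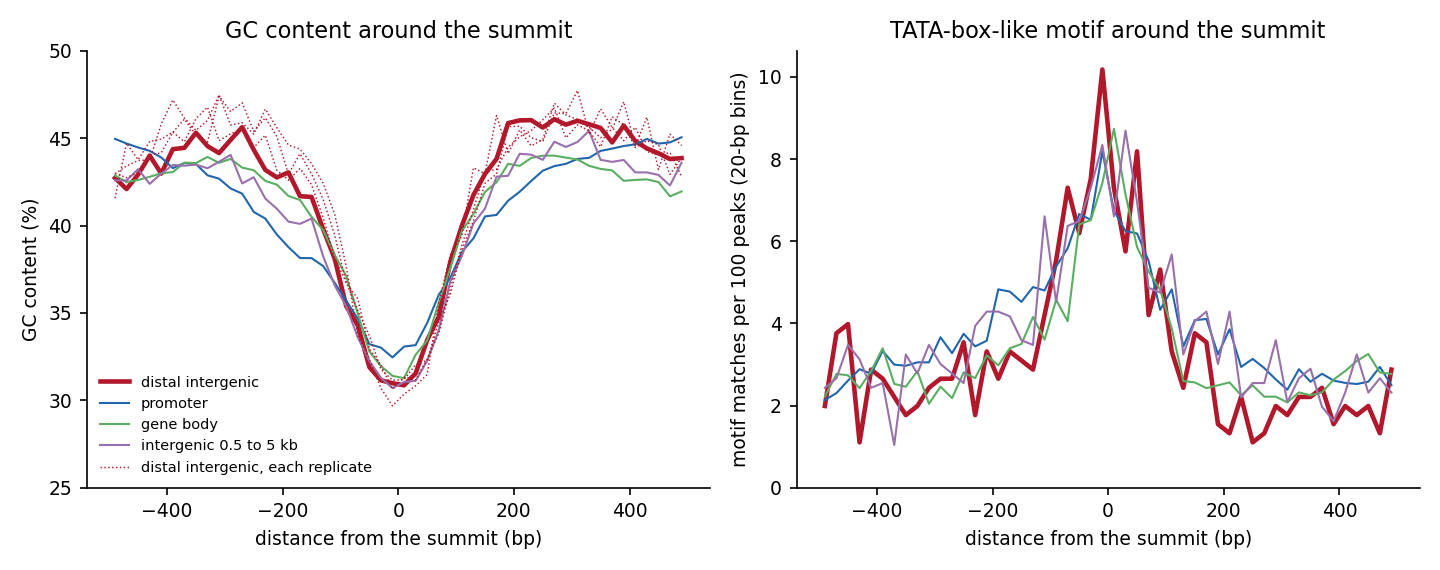
The left panel plots GC content (y axis, %) and the right panel matches of a TATA-box-like motif per 100 peaks (y axis), in bins of 20 bp, against distance from the summit (x axis, bp) for the 4 location classes of the conservative list; dotted lines on the left are distal intergenic peaks of each replicate. GC at distal intergenic peaks falls from 46.1% to 30.9% at the summit. The motif there rises to 10.2 matches per 100 peaks in the bin from -20 to 0 bp, and the bins within 20 bp of the summit together hold 17.5.

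Of 36 motifs of known factors, 5 were more frequent at distal intergenic summits than in the flank at higher coordinates (13.9% of those tested) and 4 were less frequent (11.1%; two-sided exact McNemar test, Benjamini-Hochberg adjusted over the 36). Both strands were searched. The motif TATAAA, the core of the TATA box, stood within 50 bp of 125 summits (27.7%) and in 34 flanks (7.52%), with an adjusted exact p of 1.19e-14. It was found in 12.2% of all eligible windows of the same length. In replicates 1, 2 and 3 it stood at 26.4%, 28.1% and 25.6% of summits and in 7.44%, 8.33% and 7.41% of flanks, and the call held in each of them. It was also found at 25.1% of promoter, 26.5% of gene body and 27.7% of nearer intergenic summits, so no class stood far from the others.

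The other motifs called more frequent were rich in A and T. TTTTTTA, a run bound by Hunchback, a gap protein of the early embryo, was found at 12.6% of summits and in 4.65% of flanks (adjusted exact McNemar p = 0.000346), with 7.67% of eligible windows. TTTGAT, bound by Pangolin, the TCF protein of the Wingless pathway, was found at 13.9% and in 7.30% (adjusted exact p = 0.0124), with 10.7% of eligible windows. AAAAAAAA, which overlaps TTTTTTA read on the other strand, was found at 7.30% and in 3.10% (adjusted exact p = 0.0243), with 5.10% of eligible windows. TAAACA, bound by forkhead proteins, was found at 13.7% and in 8.19% (adjusted exact p = 0.0458), with 9.51% of eligible windows. Each of these motifs was also more frequent at summits than in flanks in every other location class, where no test was run. TTTTTTA was found at a larger share of summits in every other class, with 15.8% of promoter and 16.1% of nearer intergenic summits (7.35% and 5.79% of flanks).

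The motifs called less frequent hold between 2 and 5 G or C letters. GCCAT, the core bound by the Polycomb recruiter Pho, was found at 12.4% of summits and in 21.2% of flanks (adjusted exact McNemar p = 0.00418), with 18.8% of eligible windows. AGGNGGC, the core bound by the insulator protein CTCF, was found at 2.21% and in 7.30% (adjusted exact p = 0.00353), with 3.29% of eligible windows. CACACACA was found at 0.664% and in 4.20% (adjusted exact p = 0.00616), with 1.79% of eligible windows. ACAATG, bound by Sox proteins, was found at 3.76% and in 8.41% (adjusted exact p = 0.0237), with 6.15% of eligible windows. All 9 differences had the same direction in 3 of 3 replicates. GC content was lower at the summits than in the flanks (above), and the part of base composition in these calls was not tested.

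Calls other than that of TATAAA depended on the list. In the replicates' own lists 1, 1 and 2 motifs were called more frequent, the second in replicate 3 being TTTTTTA, and none less frequent, where 4, 2 and 2 motifs were less frequent at an unadjusted p under 0.05 (exact McNemar tests). Without replicate 1 there was 1 call of more and none of less, with 3 less frequent at an unadjusted p under 0.05. Without replicate 3 there were 3 and 1. Of 8 alternatives, ACAATG was called in none, TAAACA in 2, TTTGAT and CACACACA in 3 each, AAAAAAAA and GCCAT in 4 each, and TTTTTTA and AGGNGGC in 5 each. TATAAA was called in all 8, with adjusted exact p from 7.79e-17 to 3.62e-06.

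The remaining 27 motifs did not pass the threshold. They were GAGAG of the GAGA factor, GAGAGAGA of Clamp, CAGGTA of Zelda, TATCGATA of Dref, CGATA of BEAF-32, GGTCACAC of M1BP, TAATTA of homeodomain proteins, TAATCC of Bicoid, TTTATG of Caudal (which shares letters with TATAAA read on the other strand), TGATTNAT of Hox with Exd and AGATAA of GATA factors. The others were TGGGAA of Su(H), CATATG of Twist, CAGGTG of Snail, CAGCTG of proneural proteins, TGANTCA of AP-1, TTCNNNGAA of Stat92E, AACCGG of Grainyhead, TGTGGT of Runt proteins, AGGTCA of nuclear receptors, GGCGCC of Brinker and Mad, TGCATA of Su(Hw), CTANNNTAG of Mef2, CACTTGA of Tinman, CCGGAA of Ets proteins, the repeat ATATATAT and the sequence CACGTG of bHLH proteins. The GAGA factor motif GAGAG stood at 8.41% of distal intergenic summits and in 12.8% of flanks (adjusted exact McNemar p = 0.123), with 11.5% of eligible windows. CAGGTA, bound by Zelda, the pioneer factor of the early zygotic genome, stood at 1.99% and in 0.885% (adjusted exact p = 0.384), with 2.28% of eligible windows. TAATTA, a homeodomain core, stood at 10.2% and in 6.64% (adjusted exact p = 0.173), with 6.88% of eligible windows. Absence of a call says only that these letters were not shown to differ in frequency in these windows.

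Words of 7 bases that led in the other 7352 peaks were also common at distal intergenic summits and are given as a description. All 10 consisted of A and T. AAATATT stood at 21.7% of distal intergenic summits and in 4.20% of their flanks, and at 14.1% of the other summits and in 5.35% of theirs. For AAAATAT the values were 21.7% and 4.42% at distal intergenic peaks, and 18.05% and 6.77% at the others. Not every word was more common at distal intergenic summits than at the others. TTAAAAA stood at 14.6% against 16.6% of the other summits, TTTAAAA at 14.16% against 14.99% and ATTTTAA at 11.5% against 14.2%. The remaining words were more common at distal intergenic summits, AAAAATA by little (18.4% against 17.9%). In replicates 1, 2 and 3, AAATATT stood at 23.1%, 21.9% and 22.2% of distal intergenic summits.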

How the data were processed

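Per the labels, the files are peak lists on dm6 from 3 biological replicates of embryos carrying the tagged protein, and nothing in them says whether the replicates came from separate collections, so SDs may be technical. Peak signals are a score that the authors deposited, and the deposited −log10 global IDR is at least 2 (an IDR of 0.01 or less) in the thresholded lists. The summit column, given as an offset, was deposited by the authors as well. The peak caller is not given in the sources used here, reads and the control library were not analysed, and the depth is unknown. The replicates behind each series-level list were identified from lines identical to replicate lists (63.3% to 94.1% of lines). Per the file listings, these lists derive from the alignments of all replicates.

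An interval was counted once, at its strongest summit. Genes and TSSs came from Ensembl release 115 without transposable elements, and sequence from RefSeq. Eligible sequence was every base that met the location rule, and the centromere ends were the 5 Mb at high coordinates of 2L, 3L and X and at low coordinates of 2R and 3R. Motif shares used McNemar tests checked on simulated data with Python 3.11.15 and scipy 1.17.1, with a threshold of 0.05. The 95% Wilson intervals reflect counting error alone. Peaks of 1 list are not independent replicates, and overlapping peaks share bases.

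Peaks were named by rule: the 12 strongest found in all 3 replicates, the strongest such peak of each arm, the 3 farthest from a TSS, 3 at each side of the limit, and those of the 3 gaps with most. Members and lists were chosen with earlier results of these data known. The alternatives were other lists, IDR limits, annotations, overlap rules, windows and flanks. Counting overlapping peaks once and leaving out the centromere ends were chosen after seeing the data.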

Additional observations from a re-analysis of the deposited data

How the results depend on the processing

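The signal and GC differences kept their direction in the alternatives run. The order of distal intergenic against other peaks in replicate support turned with ranked lists. Without the centromere ends, the order of peaks against eligible bases turned for adhesion genes (2.43% against 1.97%, then 2.69% against 3.09%) and for promoter-bound nearest genes (19.03% against 24.3%, then 18.3% against 14.6%). The settings that leave out 1 replicate gave 215 to 452 distal intergenic peaks, a share of 5.11% to 5.79%, a median signal difference of -61.7 to -28.1, 42.3% to 70.7% found in all remaining replicates, 1 to 5 motifs more and 0 to 4 less frequent, and 55.3% to 70.8% within 10 kb of another. At an IDR of 0.001 or less there were 210 peaks, 4.59% of the list, of which 58.1% were found in all 3 replicates and 51.4% lay within 10 kb of another. Their median signal difference was -40.9, their GC difference -15.8, and 1 motif was more and 0 less frequent (4 less at an unadjusted exact McNemar p under 0.05). With protein-coding annotation only there were 769 peaks (9.85%), with a signal difference of -20.3, 8 motifs more frequent, 77.5% within 10 kb and 17.3% nearest to a patterning gene. With transposable elements counted as genes the share was 5.05%, 2 motifs were less frequent and 0 summits lay in elements, by construction. The pooled list gave 18.8% nearest to a patterning gene, and either flanking gene 32.1%. Found in all 3 replicates were 24.1% with summits within 100 bp and 86.5% with ranked lists. Every deposited line as a peak gave a signal difference of -20.1 and a GC difference of -12.7. Windows of 100 bp to each side gave a GC difference of -11.5, and the flank at lower coordinates -12.6, with 2 motifs more and 2 less frequent. Windows of 25 bp gave 1 more and 0 less (5 less at an unadjusted exact McNemar p under 0.05). Counting overlapping peaks once gave a signal difference of -35.2, a GC difference of -16.1 and 58.9% within 10 kb. Without centromere ends there were 3 motifs more and 2 less frequent, and 0 summits in elements. Within 20 kb of another lay 80.1%. The cause of these shifts was not tested unless stated.

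Apart from the signal percentiles of named peaks (below), the remaining values moved by less than the spread between replicates, or by less than 1.5 times for counts. No paired analysis was possible because all replicates belong to 1 group, so no second group shares their numbers; the sign-flip and McNemar tests pair values within a replicate or a peak. Without read counts, the depth limits the lists to an unknown degree. Signal percentiles of 15 named peaks in the replicates' own lists ran from 30.2 to 99.8. Of these 45 values, 24 moved from that of the conservative list by more than the spread between replicates.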
